A study of Mus musculus with 14 samples.

Results

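Acetylation of histone H3 at lysine 9 (H3K9ac), a mark of active gene starts, was followed at 9 genes of peroxisomal fatty acid metabolism in regenerating mouse liver: Ehhadh, Acaa1a, Acaa1b, Hsd17b4, Crot, Ephx2, Pex11a, Aldh3a2 and Decr2. The genes were chosen by name with the d22 against pbs values of these libraries already known, so those values are given below as a description and support nothing by themselves. Peaks belonged to a gene when they overlapped its RefSeq span extended by 10 kb on each side, or by 45 kb for Crot. Overlapping peaks of all libraries were merged into regions: 71 of 57979 regions lay at these genes, and 13 of the 12375 regions called in every library.

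All 12 libraries came from liver of male C57BL6/J mice of 2 to 3 months, taken 12 h after partial hepatectomy, the surgical removal of part of the liver, and immunoprecipitated with an antibody to acetylated H3K9. Of these libraries 6 were titled d22 and 6 were titled pbs, and the study asked what delaying the hypoglycemia that follows the operation does to this mark. The treatment labels go against the titles: libraries titled d22 carry the label of vehicle (1/2 strength PBS), libraries titled pbs that of dextrose (22.5% in vehicle), and both pooled inputs that of dextrose. Groups are therefore called by their titles, no treatment is attached to either, and whether each library is a separate animal is not stated, so p-values measure library spread only, which may be technical.

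Peroxisomes shorten very long chain, branched chain and dicarboxylic fatty acids that mitochondria handle poorly, and the shortened products leave for the mitochondria. In each round of this beta-oxidation the chain is first oxidized, a bifunctional enzyme adds water and oxidizes the product, and a thiolase splits off acetyl-CoA. In rodent liver many of these genes are targets of the nuclear receptor PPAR-alpha, which is active in fasting. Ehhadh encodes the L-bifunctional enzyme, Hsd17b4 the D-bifunctional enzyme, and Acaa1a and Acaa1b the thiolases. Decr2 encodes a dienoyl-CoA reductase for unsaturated chains, Aldh3a2 a fatty aldehyde dehydrogenase, Crot the carnitine octanoyltransferase that readies shortened chains for export, Ephx2 the soluble epoxide hydrolase and Pex11a a membrane protein of peroxisome division.

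Depth ran from 6343891 tags in d22 4 to 13259411 tags in pbs 1. Library d22 4 stood apart: it listed 44585 peaks, against 26352 to 30780 in the other 11 libraries, and its values are given separately where they matter. At gene starts the tissue carried the marks of hepatocytes: all 10 hepatocyte markers (Alb, Ttr and others) had a region called in every library. The same held for 1 of 5 endothelial markers (Pecam1), 1 of 5 cholangiocyte markers (Sox9), 0 of 5 macrophage, 0 of 5 stellate and 0 of 7 lymphocyte and neutrophil markers. In whole liver, fewer cells carrying the mark and less of the mark per cell cannot be told apart.

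The gene starts themselves differ in base composition. RefSeq sequences of GRCm38.p6 (the assembly of mm10), from 250 bases before to 50 after the start, were matched for 7 of the 9 genes by symbol (Ephx2 and Hsd17b4 had no entry). The starts printed are those of the thiolase pair, which are close copies of each other as genes yet differed in H3K9ac, and of Crot and Aldh3a2, where called peaks were shorter in d22. CG dinucleotides are in capitals, and all 4 read 5′ to 3′ on the gene's own strand.
Acaa1b (chr9:119157044-119157343, minus strand): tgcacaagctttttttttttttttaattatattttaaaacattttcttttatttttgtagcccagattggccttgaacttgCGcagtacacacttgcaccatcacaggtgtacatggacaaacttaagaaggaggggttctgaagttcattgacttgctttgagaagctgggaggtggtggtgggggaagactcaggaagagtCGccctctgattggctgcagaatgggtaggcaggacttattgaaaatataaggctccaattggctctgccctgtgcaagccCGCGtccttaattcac
Acaa1a (chr9:119341044-119341343, plus strand): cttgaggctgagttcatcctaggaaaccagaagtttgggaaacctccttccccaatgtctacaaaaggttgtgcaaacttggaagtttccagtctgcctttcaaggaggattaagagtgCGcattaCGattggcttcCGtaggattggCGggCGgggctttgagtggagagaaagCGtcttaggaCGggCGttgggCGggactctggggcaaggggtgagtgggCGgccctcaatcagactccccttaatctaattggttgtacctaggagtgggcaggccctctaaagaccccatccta
Crot (chr5:8997097-8997396, minus strand): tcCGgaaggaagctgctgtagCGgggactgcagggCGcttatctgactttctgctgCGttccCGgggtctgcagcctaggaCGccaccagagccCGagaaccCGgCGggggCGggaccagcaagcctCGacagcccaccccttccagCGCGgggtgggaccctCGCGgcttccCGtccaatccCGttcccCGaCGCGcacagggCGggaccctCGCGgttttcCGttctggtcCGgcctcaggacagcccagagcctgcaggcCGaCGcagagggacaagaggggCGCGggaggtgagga
Aldh3a2 (chr11:61267137-61267436, minus strand): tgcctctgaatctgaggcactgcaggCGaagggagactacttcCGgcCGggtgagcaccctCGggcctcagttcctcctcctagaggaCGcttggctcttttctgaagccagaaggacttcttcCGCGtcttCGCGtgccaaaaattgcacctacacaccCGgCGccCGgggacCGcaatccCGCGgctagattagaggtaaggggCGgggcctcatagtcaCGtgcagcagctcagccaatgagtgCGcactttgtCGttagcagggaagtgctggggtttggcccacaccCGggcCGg

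The Acaa1b start held 4 CG dinucleotides and 43.7% G and C, against 10 and 53.3% for Acaa1a, 21 and 61.7% for Aldh3a2, and 29 and 69.7% for Crot. The median of 32851 mouse promoters of this length was 7 CG dinucleotides and 52.7% G and C. Acaa1b thus had fewer CG dinucleotides than the median promoter and the other 6 had more: Ehhadh had 14, Decr2 15 and Pex11a 13. A global alignment of the thiolase starts gave 167 identical bases of 262 aligned (63.7%) with 76 gap positions. No other pair of starts was aligned for comparison, so nothing is read from that share. The direct repeat bound by PPAR-alpha with its partner RXR (AGGTCANAGGTCA, both strands) was sought with up to 2 mismatches outside the N, and 0 of the 7 starts held a match, against 3.86% of all promoters. Its unit AGGTCA without mismatch, which that repeat contains, was likewise in 0 of the 7 and in 16.3% of all promoters. These counts describe the printed window only.

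Among the thiolases, the region at the Acaa1b start (chr9:119153692-119157343) showed the largest difference of the 13. Levels are in CPM, the tag count scaled to all tags of the tested regions with TMM normalization factors. The region held 18.02, 37.3 and 66.8 CPM at the lowest, median and highest d22 library, against 67.6, 89.6 and 105 CPM in pbs libraries. No d22 library reached the lowest pbs library, although d22 5 at 66.8 CPM came close to pbs 1 at 67.6 CPM. Means were 39.1 ± 18.4 CPM in d22 and 88.1 ± 15.3 CPM in pbs (SD, n = 6 each), a log2 fold change of -1.14 ± 0.23 (SE, d22 over pbs, as throughout). Leaving out d22 4, the lowest library, gave -1.02. The peaks there were also shorter: 874, 1480 and 2622 bp at the lowest, median and highest d22 library, against 2644, 2868 and 3546 bp in pbs libraries, again without overlap. Tags per kb of called length overlapped, at 24.3 ± 4.62 CPM per kb in d22 and 29.2 ± 3.30 CPM per kb in pbs (SD, n = 6 each).

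Acaa1a, the neighbouring thiolase on the same chromosome, shared its start region (chr9:119338546-119344318) with the start of Myd88, an adaptor of innate immune receptors. That region held 125, 147 and 177 CPM at the lowest, median and highest d22 library, against 160, 174 and 215 CPM in pbs libraries. The groups overlapped, with 4 of 6 d22 libraries below every pbs library and a log2 fold change of -0.26 ± 0.10 (SE). How tags that match both thiolase genes were placed is not given in the sources used here. A second region in the Acaa1a window (chr9:119356886-119359951), over the lower-coordinate end of the neighbouring gene Xylb, which encodes a xylulokinase, went the other way by sign: 71.3, 86.0 and 138 CPM in d22 libraries, against 67.9, 77.9 and 86.5 CPM in pbs libraries. Its log2 fold change was 0.21 ± 0.13 (SE), and 0.08 without d22 4, the library at 138 CPM. Scaled to library totals alone it was -0.02.

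Ehhadh, the L-bifunctional enzyme, had a region over its own start (chr16:21785679-21788484) that was called in 11 libraries. In d22 3 no peak was listed, which gives no count there rather than a count of 0, so the region was not tested. The other 5 d22 libraries held 11.5, 13.9, 22.8, 29.95 and 38.4 CPM, against 37.2, 41.4, 43.5, 45.6, 47.9 and 56.2 CPM in the 6 pbs libraries. Thus 4 of the 5 d22 values lay under every pbs value, and d22 5 at 38.4 CPM lay just above pbs 1. Peaks were 592 to 1791 bp long in d22 and 1361 to 2806 bp in pbs. The region with the most tags in the Ehhadh window lay 5.2 kb upstream, over the start of 1300002E11Rik (chr16:21793016-21795628), and hardly differed: 58.8, 71.5 and 80.6 CPM in d22 libraries, against 57.7, 79.4 and 96.6 CPM in pbs libraries, a log2 fold change of -0.09 ± 0.13 (SE).

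Hsd17b4, the D-bifunctional enzyme, had its leading region over the lower-coordinate end of the gene (chr18:50127693-50130389), and no strand was assigned to the gene here. Levels were 90.2, 110 and 133 CPM at the lowest, median and highest d22 library, against 102, 123 and 145 CPM in pbs libraries. The groups overlapped widely and the log2 fold change was -0.16 ± 0.11 (SE). The second region of this gene, just inside it (chr18:50130605-50135940), was called in 11 libraries, again not in d22 3. It held 19.4, 20.6, 25.8, 45.8 and 50.3 CPM in 5 d22 libraries, against 42.8 to 69.7 CPM in the 6 pbs libraries, so 3 of the 5 d22 values lay under every pbs value. Of the auxiliary enzymes, Decr2 at its start (chr17:26086032-26090908) held 79.0, 97.1 and 146 CPM in d22 libraries, against 96.3, 134 and 151 CPM in pbs libraries. These groups overlapped, with 3 of 6 d22 libraries below every pbs library and d22 4 the highest of d22 at 146 CPM. The log2 fold change was -0.34 ± 0.13 (SE), and -0.44 without d22 4.

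**Figure D1:**
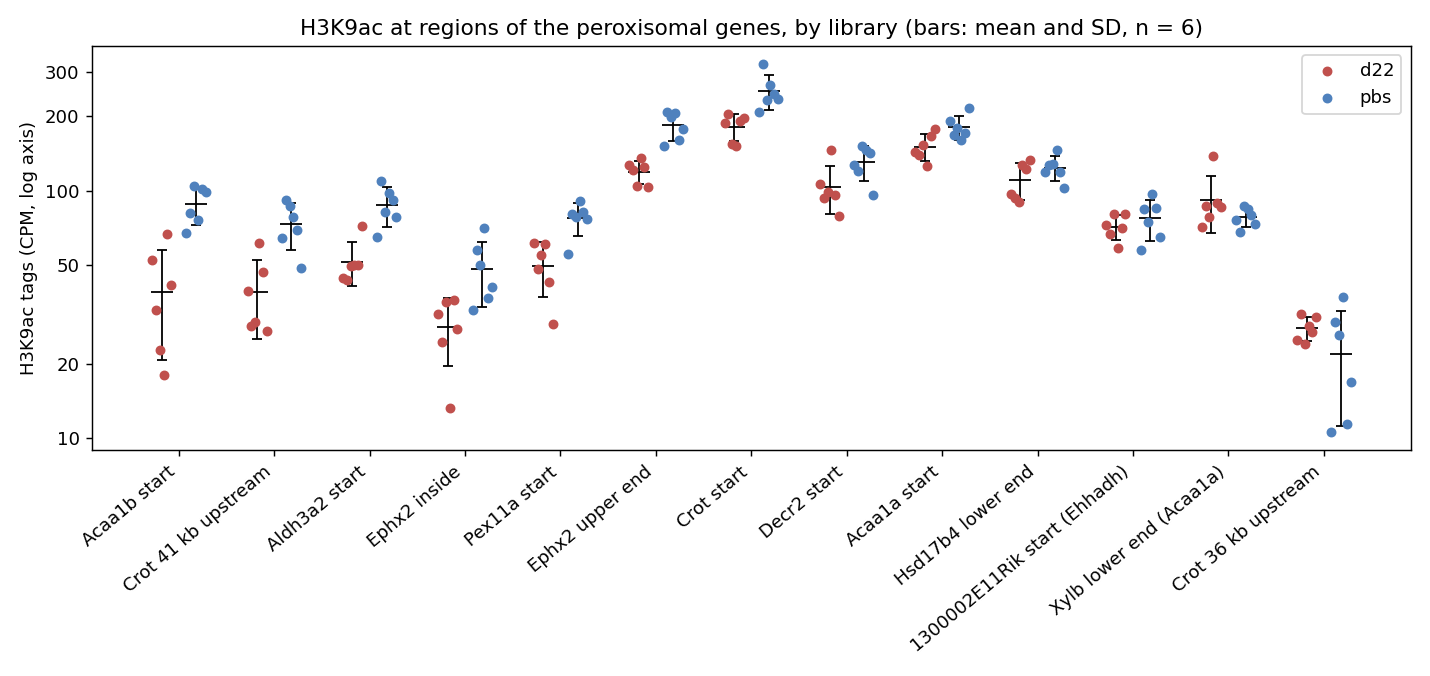
H3K9ac level in CPM (log axis) of each library at the 13 regions called in every library, ordered by log2 fold change, with d22 left and pbs right in each pair, points for single libraries and bars for the mean and SD of 6. The groups do not overlap at the Acaa1b start, the Crot start and the Ephx2 upper end.

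Aldh3a2, which oxidizes fatty aldehydes, was lower in d22 at its start (chr11:61264182-61268039) in all but 1 library. Levels were 43.6, 49.8 and 71.7 CPM at the lowest, median and highest d22 library, against 64.8, 86.9 and 109 CPM in pbs libraries. The overlap came from d22 6, at 71.7 CPM, and pbs 1, at 64.8 CPM. Means were 51.6 ± 10.3 CPM in d22 and 87.3 ± 15.7 CPM in pbs (SD, n = 6 each), with a log2 fold change of -0.76 ± 0.14 (SE). Called length did not overlap at all: 1394, 1814 and 2434 bp in d22 libraries, against 2840, 3542 and 3801 bp in pbs libraries.

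Crot, the octanoyltransferase, held the most tags of the 9 genes over its start region (chr5:8990230-8998184), which was also the longest. Per kb of called length it held 34.9 ± 4.29 CPM in d22 and 33.6 ± 4.38 CPM in pbs, under the 57.4 ± 20.7 CPM in d22 and 50.04 ± 4.90 CPM in pbs at the Hsd17b4 end (SD, n = 6 each). Levels were 152, 190 and 203 CPM at the lowest, median and highest d22 library, against 207, 240 and 323 CPM in pbs libraries, with no overlap but a narrow gap between d22 2 and pbs 1. Means were 181 ± 22.2 CPM in d22 and 251 ± 39.9 CPM in pbs (SD, n = 6 each), a log2 fold change of -0.47 ± 0.11 (SE). The called length was 4808, 5072 and 5856 bp in d22 libraries, against 6517, 7648 and 7955 bp in pbs libraries, also without overlap. A more distant pair of regions in the 45 kb window differed from each other. The region 41.3 kb upstream (chr5:9038447-9041757), which reaches the end of the long noncoding RNA gene Gm40264, held 27.1, 34.4 and 61.7 CPM in d22 libraries, against 48.8, 73.6 and 91.4 CPM in pbs libraries. Only d22 4, at 61.7 CPM, overlapped the pbs range. The log2 fold change was -0.93 ± 0.20 (SE), and -1.07 without d22 4. The region 36.0 kb upstream (chr5:9033193-9034686) held 24.1, 27.6 and 31.6 CPM in d22 libraries, against 10.6, 21.5 and 37.1 CPM in pbs libraries. Here the d22 values lay inside the pbs range and the log2 fold change was 0.37 ± 0.28 (SE). With peaks up to 500 bp apart merged it was -0.13.

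Ephx2, the epoxide hydrolase, was lower in every d22 library over its upper-coordinate end (chr14:66118175-66125539), and its strand is not given in the sources used here. That region held 104, 122 and 136 CPM at the lowest, median and highest d22 library, against 151, 187 and 208 CPM in pbs libraries, which left the widest gap between groups of the 3 regions without overlap. Means were 119 ± 12.9 CPM in d22 and 183 ± 24.0 CPM in pbs (SD, n = 6 each), with a log2 fold change of -0.62 ± 0.10 (SE). A region inside the gene (chr14:66110247-66113095) held 13.3, 29.7 and 36.3 CPM in d22 libraries, against 32.9, 45.5 and 70.3 CPM in pbs libraries. The groups overlapped there, d22 4 was the lowest, and the log2 fold change was -0.73 ± 0.22 (SE). Pex11a, the peroxisome division gene, shares its start region (chr7:79739516-79743630) with the start of Wdr93. It held 28.9, 51.8 and 61.2 CPM in d22 libraries, against 55.6, 79.4 and 90.8 CPM in pbs libraries, with 5 of 6 pbs libraries above every d22 library and a log2 fold change of -0.64 ± 0.16 (SE).

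In the count model fitted across all 12375 regions (edgeR quasi-likelihood test, Benjamini-Hochberg adjustment over all of them), 5 of the 13 regions were lower in d22 at an adjusted p under 0.05, and 0 were higher. Of all tested regions 69 were lower, 0.558% of them, and 56 were higher. Nothing is read from that difference, because the genes were selected on this contrast. The 5 were the Ephx2 upper end, the Aldh3a2 start, the Acaa1b start, the region 41.3 kb upstream of Crot and the Crot start, with edgeR adjusted p of 0.00553, 0.0129, 0.0234, 0.0304 and 0.0447. The other 8 had edgeR adjusted p from 0.0714 (Pex11a) to 0.859 (1300002E11Rik). CPM did not overlap between groups with d22 lower in 3 of the 13 regions, against 0.743% of all tested. Of the 13 regions 11 had a negative log2 fold change, with a median of -0.47, whereas the median of all tested regions was 0.00.

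These calls were near the threshold. Leaving out 1 library at a time left 2 to 6 of the 13 regions called. Without d22 4 it was 5, with Pex11a called (edgeR adjusted p = 0.0461) and the Crot start not (edgeR adjusted p = 0.0612). The Ephx2 and Aldh3a2 calls remained without each of the 12 libraries (edgeR adjusted p up to 0.0199 and 0.0428). The Crot start was called only with all libraries or without pbs 1 (edgeR adjusted p up to 0.117). Acaa1b was lost without d22 2, d22 6, pbs 3, pbs 5 or pbs 6 (edgeR adjusted p up to 0.0658). The distant Crot region was lost without d22 1, d22 2, d22 3, d22 6, pbs 2, pbs 3, pbs 4 or pbs 5 (edgeR adjusted p up to 0.0851). Per the file headers tags were 48 bp long in pbs 1, 4 and 6, and 49 bp elsewhere. Without those 3 libraries Acaa1b (-1.26, edgeR adjusted p = 0.105), the Crot start (-0.56, edgeR adjusted p = 0.101) and the distant Crot region (-1.11, edgeR adjusted p = 0.0587) were not called, and Ephx2 and Aldh3a2 were. With regions called in at least 10 libraries added at 0 tags where missing, the same 3 also missed the threshold (edgeR adjusted p of 0.05, 0.0848 and 0.0531, in that order). Scaled to library totals alone, the median of all tested regions shifted to -0.22 and 9 of the 13 regions were called lower, with a median of -0.67.

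The tags of a region depend on how widely it was called, so called length and tags per kb of called length were set beside them. At all 13 regions tags and called length differed in the same direction (Pearson r = 0.98 of their log2 fold changes across the 13, and 0.823 across all 12375 regions). Both are read from the same peaks, and regions are not independent replicates. The median log2 fold change of called length was -0.52 over the 13 regions and -0.08 over all tested. For tags per kb it was 0.03 over the 13 and 0.09 over all tested. Called length did not overlap, with d22 shorter, in 4 of the 13 regions (Acaa1b start, Aldh3a2 start, Crot start and 41.3 kb upstream of Crot), against 0.323% of all tested. No region of the 12375 passed an adjusted p of 0.05 for length in limma, while 850 had an unadjusted p under 0.05, 9 of them among the 13. The lowest adjusted p of the 13 was 0.0655, for the Crot and Aldh3a2 starts. Without d22 1, limma called 38 regions for length, 4 of them among the 13. In tags per kb 0 of the 13 were called by limma and 1, the Acaa1b start, had an unadjusted p under 0.05. Over all 12375 regions 5 were called in tags per kb and 820 had an unadjusted p under 0.05, so that 1 region is not read as a result.

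**Figure D2:**
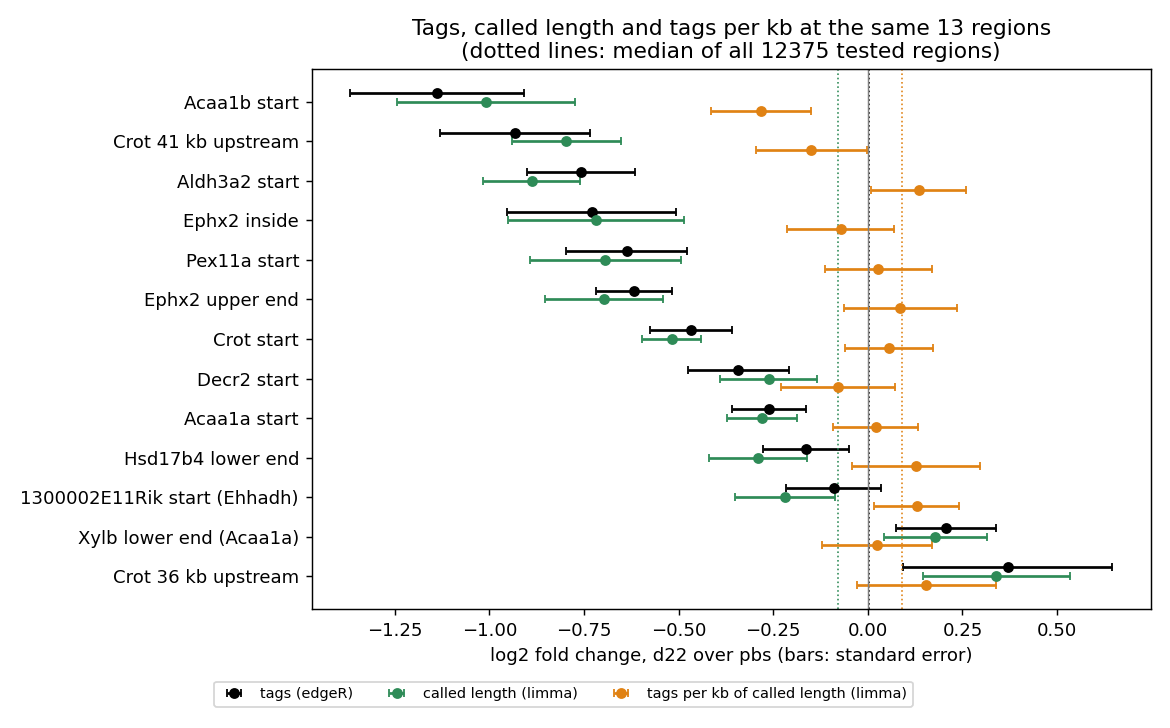
Log2 fold change (d22 over pbs) of tags, called length and tags per kb of called length at the same 13 regions, with bars for the SE and dotted lines for the median of all tested regions. Tags and called length move together from -1.14 and -1.01 at the Acaa1b start to 0.37 and 0.34 at 36 kb upstream of Crot, whereas tags per kb stay between -0.28 and 0.15.

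In bp, the difference in called length was larger on the gene side of the start than on the outer side, which is also the shorter side in most of these regions. At the Crot start the called length inside the gene averaged 4477 ± 383 bp in d22 and 6578 ± 443 bp in pbs (SD, n = 6 each), a difference of -2100.5 bp. On the outer side it averaged 737 ± 192 bp in d22 and 889 ± 103 bp in pbs. Aldh3a2 had 1158 ± 362 bp in d22 and 2659 ± 342 bp in pbs inside the gene, and 700 ± 115 bp in d22 and 749 ± 68.4 bp in pbs outside it. For Acaa1b the gene side averaged 1501 ± 640 bp in d22 and 2895 ± 342 bp in pbs, and the outer side 104 ± 102 bp in d22 and 114 ± 75.8 bp in pbs. Ephx2, measured from its upper-coordinate end, had 2913 ± 726 bp in d22 and 4582 ± 772 bp in pbs inside the gene, and 263 ± 47.6 bp in d22 and 512 ± 270 bp in pbs outside it. Relative to its own length the outer side of Ephx2 thus differed at least as much as the gene side. The same held for Hsd17b4, with 1819 ± 334 bp in d22 and 2144 ± 54.7 bp in pbs inside the gene and 226 ± 167 bp in d22 and 312 ± 72.9 bp in pbs outside it. For Pex11a the gene side averaged 1564 ± 451 bp in d22 and 2466 ± 487 bp in pbs, and the outer side 161 ± 121 bp in d22 and 259 ± 127 bp in pbs. Over the 8 genes with a region at their start or end in every library, the difference inside the gene ran from -324.8 bp (Hsd17b4) to -2100.5 bp (Crot), and outside it from -9.8 bp (Acaa1b) to -249.5 bp (Ephx2). Over 6637 genes with 1 start in such a region, the median difference was -63.3 bp inside and -31.5 bp outside the gene. As called lengths of these genes are part of the contrast they were chosen on, this is a description without a test.

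**Figure D3:**
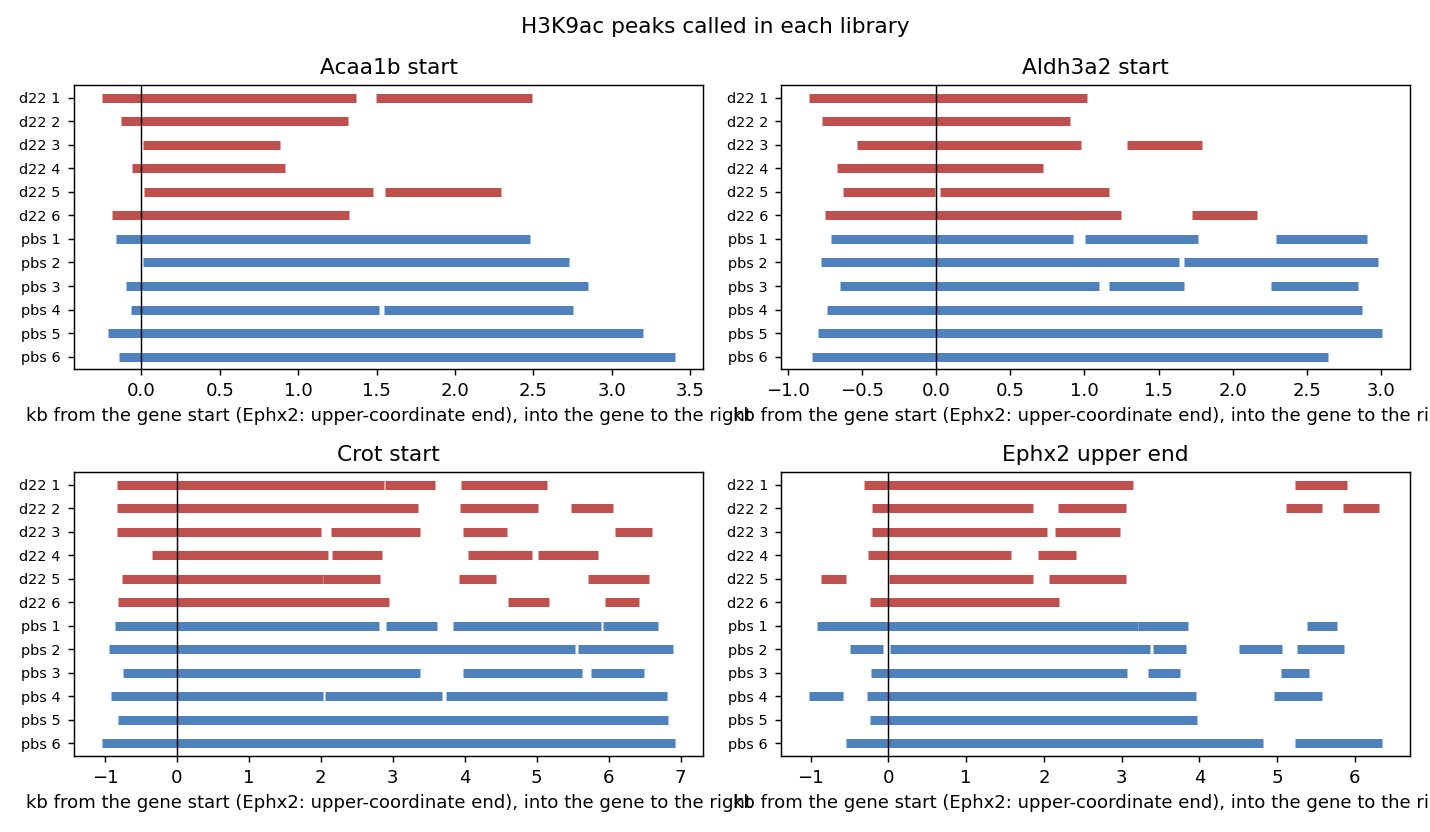
Peaks called in each library (d22 above pbs) at 4 regions, by distance in kb from the gene start, or for Ephx2 from its upper-coordinate end, with the gene to the right of 0. Less length was called inside the gene in d22, a mean of 1158 bp against 2659 bp inside Aldh3a2. At Crot and Ephx2 peaks are broken by gaps in both groups. A library had a mean of 3.5 peaks in d22 and 2.33 in pbs at Crot. At Ephx2 the mean was 2.33 in d22 and 2.83 in pbs. Some d22 peaks reach as far into the gene as pbs peaks.

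Fold enrichment, the authors' ratio of a peak over its local background, was lower in d22 at an adjusted p under 0.05 (limma on log2) in 6 of the 13 regions, and 0 were higher. Of all tested regions 18.7% were lower on this measure. Without pbs 3 only 3 of the 13 were called. All libraries of a title group were called against 1 pooled input of that group, so input and group cannot be told apart in these ratios. The same inputs entered the calling of every peak. At the Hsd17b4 end the highest fold enrichment was 39.7, 57.1 and 72.0 at the lowest, median and highest d22 library, against 59.4, 92.6 and 112 in pbs libraries, although its tags differed little. The Xylb end had 15.5, 20.4 and 32.1 in d22 libraries, against 31.4, 38.8 and 55.9 in pbs libraries, with tags of the other sign. At the Ephx2 upper end, called on tags, it was 33.6, 45.1 and 84.0 in d22 libraries, against 39.3, 53.9 and 81.4 in pbs libraries, and was not called. Of the 13 regions only the Acaa1b start had no overlap between groups, at 11.1, 22.5 and 23.8 in d22 libraries, against 26.1, 31.1 and 51.5 in pbs libraries. The share of all tested regions without overlap on this measure is not given here, so nothing is read from that count. Of all tested regions 85.5% had a negative log2 fold change of fold enrichment, with a median of -0.30.

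The remaining 58 regions of the 9 genes were called in fewer than 12 libraries and held 9 to 180 tags where called. Of these 29 were called in 1 library, 11 of them in d22 4, and 29 in 2 to 11 libraries. Crot had 16 such regions and Ephx2 16, Acaa1a 6, Ehhadh 5, Hsd17b4 4, Pex11a 3, Aldh3a2 3, Decr2 3 and Acaa1b 2. In the whole set of 71 regions 19 were found in d22 libraries only and 14 in pbs libraries only. No such count over the whole series is given here, so nothing is read from these 2 numbers. Among the 29 called in 2 to 11 libraries, 5 had more d22 than pbs libraries, 17 had more pbs libraries and 7 had equal numbers. The 17 make 58.6% of the 29, against 41.0% of 18335 such regions in the whole series. Fisher's exact test on the libraries with and without a peak called 0 of the 25 such regions in 2 to 10 libraries after adjustment, 0 at an unadjusted p under 0.05 (the lowest was 0.0801), and over all 16871 such regions 0 after adjustment and 99 at an unadjusted p under 0.05.

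Of the regions called in 11 libraries, the ones of Acaa1b and Ephx2 were weak. The region 7.0 kb upstream of Acaa1b (chr9:119164107-119166330) held 9.04 to 14.8 CPM in the 5 d22 libraries that called it, against 14.5 to 36.5 CPM in the 6 pbs libraries. The one near the lower-coordinate end of Ephx2 (chr14:66088505-66091434) held 10.0 to 22.5 CPM in 5 d22 libraries, against 15.3 to 32.0 CPM in the 6 pbs libraries. Both overlapped between groups. Inside Aldh3a2, 30.8 kb from the start (chr11:61234479-61236347), 2 d22 libraries had a peak at 6.23 and 6.63 CPM, and 5 pbs libraries had one at 11.0 to 29.4 CPM. At 2.1 kb upstream of Crot (chr5:8999237-9000693) 1 d22 library had a peak at 11.8 CPM, and 5 pbs libraries had one at 7.27 to 27.0 CPM.

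With a flank of 5 kb or none, 9 of the 13 regions called in every library were left. The regions at 1300002E11Rik and Xylb and both distant Crot regions dropped out, among them the called one 41.3 kb upstream. Just inside the 45 kb window of Crot, at 44.6 kb, lay a region called in 1 library (d22, 6.63 CPM), and just outside it, at 46.3 kb, one called in 3 d22 and 5 pbs libraries, with medians of 6.83 CPM in d22 and 9.59 CPM in pbs. At Decr2 a region 10.0 kb away, 26 bp beyond the 10 kb window, was called in 1 d22 library at 9.49 CPM and 1 pbs library at 6.84 CPM. Inside the Ephx2 window, at 9.2 kb, a region was called in 2 d22 libraries (median 9.86 CPM) and 1 pbs library (6.39 CPM).

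Other genes of the pathway were read at their gene-end regions, in lists drawn up with results of these data known. Over all 9150 such regions 26 were higher and 48 lower in d22 in the edgeR fit, with a median log2 fold change of 0.00. As background for the counts below, 1348 of all 12375 tested regions had an unadjusted p under 0.05 in edgeR. DESeq2 called 114 of the 12375 higher and 158 lower. Of 21 other peroxisomal oxidation enzymes 18 had a region, 0 passed in either direction in edgeR (4 at an unadjusted p under 0.05 and 1 lower in DESeq2), and the median was -0.12. Those with the smallest p were Eci2, an enoyl-CoA isomerase (123 ± 12.9 CPM in d22 and 160 ± 20.2 CPM in pbs, log2 fold change -0.37, edgeR adjusted p = 0.0936), Amacr, a racemase of branched chains (-0.22, edgeR adjusted p = 0.349), and Mlycd, malonyl-CoA decarboxylase (-0.45, edgeR adjusted p = 0.364).

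Genes of fatty acid transport and activation were lower in 2 of 8 in edgeR (6 at an unadjusted p under 0.05 and 4 lower in DESeq2). Acsl1, a long chain acyl-CoA synthetase, had 199 ± 22.7 CPM in d22 and 291 ± 34.4 CPM in pbs (SD, n = 6 each). Its log2 fold change was -0.54 ± 0.10 (SE, edgeR adjusted p = 0.00861). Its call remained without each of the 12 libraries in turn (edgeR adjusted p up to 0.0292), but not without the 3 libraries of 48 bp tags (edgeR adjusted p = 0.0527). Abcd3, a peroxisomal membrane transporter, had 146 ± 19.5 CPM in d22 and 219 ± 40.9 CPM in pbs (log2 fold change -0.57 ± 0.12 SE, edgeR adjusted p = 0.0274), and was lost in 6 of the 12 fits without 1 library: without d22 1, d22 3, pbs 2, pbs 3, pbs 4 or pbs 5 (edgeR adjusted p up to 0.0747). Abcd2, a transporter of very long chains, was at 21.5 ± 11.0 CPM in d22 and 40.9 ± 10.4 CPM in pbs and was not called (-0.91, edgeR adjusted p = 0.128). All 8 had a negative log2 fold change, with a median of -0.41.

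Of 15 peroxins, the proteins that build peroxisomes, 13 had a region, 0 passed in edgeR (2 at an unadjusted p under 0.05 and 1 lower in DESeq2) and the median was -0.09. The smallest p belonged to Pex26 (-0.36, edgeR adjusted p = 0.129), Pex19 (-0.28, edgeR adjusted p = 0.324) and Pex5 (-0.17, edgeR adjusted p = 0.52). Of 19 other peroxisomal genes 17 had a region and 2 were lower in edgeR (4 at an unadjusted p under 0.05 and 2 lower in DESeq2). Agxt, which detoxifies glyoxylate, held 28.2 ± 11.0 CPM in d22 and 58.6 ± 10.2 CPM in pbs (-1.03 ± 0.21 SE, edgeR adjusted p = 0.027), and Pipox, which oxidizes pipecolic acid and sarcosine, held 59.4 ± 7.59 CPM in d22 and 89.0 ± 18.3 CPM in pbs (-0.59 ± 0.13 SE, edgeR adjusted p = 0.0414). Agxt was lost without d22 1, pbs 4, pbs 5 or pbs 6, and Pipox without d22 1, d22 2, d22 4, d22 5, d22 6, pbs 1, pbs 2, pbs 4 or pbs 6. Neither was called without the 3 libraries of 48 bp tags (edgeR adjusted p of 0.313 for Agxt and 0.334 for Pipox). Uox, urate oxidase, came next (-0.22, edgeR adjusted p = 0.435), and the list had a median of -0.08.

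Mitochondrial beta-oxidation genes had a region in 17 of 17, shared by Hadha and Hadhb, so 16 regions. None passed in edgeR, against 9 at an unadjusted p under 0.05 and 3 called in DESeq2, 15 had a negative log2 fold change, and the median was -0.24. Decr1, the mitochondrial counterpart of Decr2, was at 115 ± 14.9 CPM in d22 and 164 ± 34.6 CPM in pbs (-0.51, edgeR adjusted p = 0.0714), Acadl at -0.44 (edgeR adjusted p = 0.0714) and Eci1 at -0.39 (edgeR adjusted p = 0.128). Of PPAR-alpha and 7 partners 7 genes had a region and 0 passed in edgeR (1 at an unadjusted p under 0.05 and 0 in DESeq2), with a median of 0.02. Ppara itself held 442 ± 88.8 CPM in d22 and 549 ± 52.5 CPM in pbs (-0.32, edgeR adjusted p = 0.274), and the coactivators Ncoa1 and Med1 had 0.18 (edgeR adjusted p = 0.601) and 0.20 (edgeR adjusted p = 0.657). Hepatocyte markers had 0 of 10 called in edgeR (3 at an unadjusted p under 0.05 and 0 in DESeq2), with a median of -0.09. Alb held 66.2 ± 16.7 CPM in d22 and 99.4 ± 26.6 CPM in pbs (-0.56, edgeR adjusted p = 0.177), while Serpina1a had -0.28 (edgeR adjusted p = 0.232) and Apob -0.23 (edgeR adjusted p = 0.331). Summed over the 10 markers the level was 2960 to 3332 CPM in d22 libraries and 3204 to 3602 CPM in pbs libraries, which overlapped. Of the markers of other cells, Pecam1 had 0.34 (edgeR adjusted p = 0.791) and Sox9 0.26 (edgeR adjusted p = 0.569). The part of cell content in the differences at the 9 genes was not tested.

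**Figure D4:**
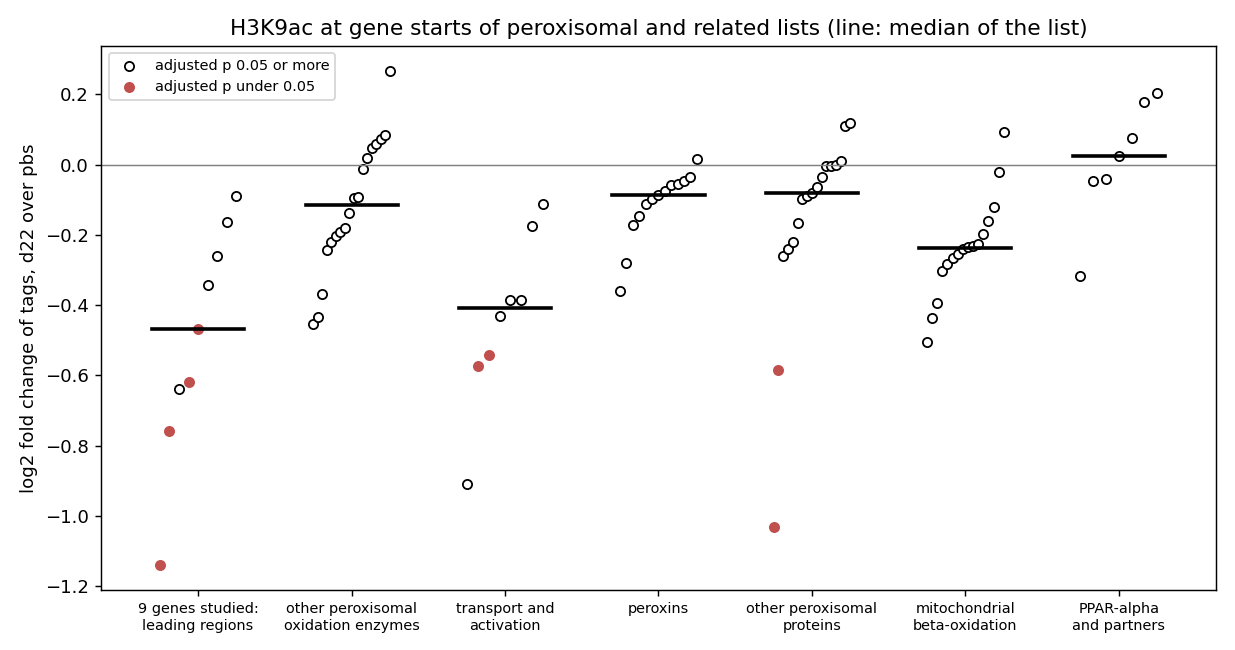
Log2 fold change of tags (d22 over pbs) at the leading regions of the 9 genes and at the gene-end regions of 6 related lists, with filled points for an edgeR adjusted p under 0.05 and a line for each list's median. The leading regions run from -1.14 to -0.09, and the 8 transport and activation genes from -0.91 to -0.11. A leading region is the one with the most tags in a gene's window, whereas list regions lie within 1 kb of a gene start or end. For Ehhadh (-0.09) it is the start of 1300002E11Rik, and the region over Ehhadh's own start was not tested and is not shown.

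Within groups the 9 leading regions varied with little in common. After each group's mean was subtracted, Pearson r between pairs of leading regions had a median of 0.092 over 36 pairs, from -0.811 to 0.703, across 12 libraries that share their scaling. Among the gene-end regions most like the mean of the 9 leading regions were those of Zfp647 (r = 0.859), Dhx29 with Mtrex (0.837), Cpeb4 (0.836) and Tmem87b (0.824), out of 9141 candidates over 12 libraries. No test was made of this likeness.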

How the data were processed

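H3K9ac ChIP-seq peak tables of 12 libraries were analysed, grouped by title. The submitters' processing notes name CASAVA 1.8, Novoalign, the mm10 build and MACS 1.4.2. The p cutoff of MACS was, per the file headers, 1e-05 and each library was called alone against the pooled input of its title group (12526421 tags for d22 and 10409931 for pbs). The columns the authors deposited were the raw count of tags per peak, the peak length, a score of -10 times log10 p, the fold enrichment ratio and the FDR in percent, which was not used.

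Peaks sharing at least 1 bp were merged, and a library's tags and called lengths were summed per region. Regions called in all 12 libraries were tested for d22 minus pbs: tags with edgeR 4.0.16 (quasi-likelihood, robust, TMM), and log2 called length, CPM per kb and highest fold enrichment with limma 3.58.1 (trend), each adjusted by Benjamini-Hochberg at 0.05 over all 12375 regions. The fits of tags and called length were tested on simulated data, those of tags per kb and fold enrichment were not. Of 100 regions changed 1.5-fold, 60% were recovered for tags and 39% for called length. At 2-fold it was 89% for tags and 85% for called length. False calls numbered 8 for tags and 12 for called length. CPM is scaled to tags in the tested regions with TMM factors, and CPM per kb to the same tags without them. For tags the SE is the size of the log2 fold change over the root of F, and for the limma measures it is the standard error from limma. Occupancy used Fisher's exact test (SciPy 1.17.1), two-sided, in regions called in 2 to 10 libraries. Counts carry counting error that the count model includes.

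All 9 genes are named, regions called in every library one by one, and of each other list the 3 genes with the smallest edgeR p. Some values are not reported here. A gene's region lay within 1 kb of its RefSeq start, or of either end where no start was given. The genes, lists and tests were chosen with earlier results of these data known. Alternatives were DESeq2 1.42.0, other scalings, filters, peak scores, merging, a replicate block and leaving out libraries. No 2 libraries were duplicates: over 66 pairs, counts gave a chi-square of 2.41 to 10.27 per degree of freedom.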

Additional observations from a re-analysis of the deposited data

Results flagged for a closer look

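Of 78 groups of 6 libraries (13 regions, by CPM, called length and CPM per kb), 2 held a library far from the others, where chance flags about 1 in 20. At the Xylb end in the Acaa1a window d22 4 held 137.5 CPM, and the other d22 libraries held 71.3 to 88.9 CPM. At the Aldh3a2 start d22 6 held 71.73 CPM, and the other d22 libraries held 43.6 to 50.3 CPM.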

How the results depend on the processing

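For tags, 125 regions were called in all, 5 of the 13. Library totals as the only scaling gave 454 and 9, DESeq2 272 in all, regions called in at least 10 libraries 69 and 2, regions of exactly 1 peak in every library 0 of 2599 and 0 of 2 (184 and 0 at an unadjusted p under 0.05), and leaving out the 3 libraries of 48 bp tags 39 and 2. The cause was not tested. Leaving out 1 library gave 64 (without pbs 3) to 139 in all and 2 to 6 of the 13 for tags, 0 to 38 and 0 to 4 for called length, 0 to 6 and 0 to 0 for tags per kb, and 1559 to 3606 and 3 to 8 for fold enrichment. A score of at least 100 left 2 regions called for length, 1 of them the Crot start (-0.66), and 2 for tags per kb. The 71 regions became 43 with no flank (the 13 became 9) and 29 with that score.

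Signs reversed for tags with library totals at Xylb (-0.02), Med1 (-0.015) and Ncoa1 (-0.055). At 36 kb upstream of Crot merging peaks up to 500 bp apart gave -0.129 for tags, -0.254 for length and -0.184 for fold enrichment. For tags per kb, with that score, Acaa1a had -0.047 and Xylb -0.007; leaving out 1 library gave values on both sides of 0 at Acaa1a (-0.033 to 0.058), Xylb (-0.063 to 0.121), Pex11a (-0.067 to 0.126), Hsd17b4 (-0.014 to 0.23), the Ephx2 upper end (-0.031 to 0.169) and inside Ephx2 (-0.158 to 0.012). None of these was called.

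Replicate numbers did not pair the libraries: same-numbered deviations correlated at -0.007 to 0.157, and 1 of 6 d22 libraries matched its own number best. With the replicate block 128 regions were called on tags, 5 of the 13, and 1688 on fold enrichment, 5 of the 13.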
